A study of Mus musculus with 2 samples.

Results

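The genes followed here belong to semaphorin signalling in cells of the embryonic mouse medial ganglionic eminence (MGE). They are the neuropilin receptors Nrp1 and Nrp2, the A-type plexin receptors Plxna2 and Plxna4, and the secreted class 3 semaphorins Sema3a and Sema3c. They were taken by symbol, and all 6 had a row among the 18088 genes of the deposited matrix. The tissue was dissected from CD-1 mouse embryos at E11.5, and single cells were sequenced on 10x Chromium after MULTI-seq labelling, which marks cell suspensions with lipid-anchored sample barcodes before they are pooled. The pool combined embryos of 2 enhancer lines, hs192 and hs799, each named for the enhancer it carries. Of 6 sample barcodes, 4 marked GFP-gated cells (2 per enhancer) and 2 marked ungated cells (1 per enhancer), so the gate can set the share of any cell class. There was 1 RNA library with no map from cells to barcodes used here, so the lines and the gate could not be compared and nothing below has a check against a second library.

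Class 3 semaphorins are secreted guidance cues. Neuropilins bind them on the receiving cell but have only a short cytoplasmic tail, and A-type plexins, which associate with neuropilins, pass the signal to the cytoskeleton of the growth cone or the leading process. Sema3a is known mainly as a Nrp1 ligand, while Sema3c can act through either neuropilin. In the ventral forebrain these cues are known for keeping migrating cortical interneurons out of the striatum, and Nkx2-1, the transcription factor that specifies the MGE, is known as a repressor of Nrp2.

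After 6 doublet calls were removed, 3995 of 4001 cells remained. Cell totals lay between 10475 and 14196 (median 12506), because the deposited values had been evened out, and raw depth is unknown. Levels below are given per 10000 of all summed values in a group, with the SD over single cells. A share is the percentage of cells with a value above 0, with an exact (Clopper-Pearson) 95% interval that covers the counting of cells only. Clusters were formed without the 6 genes and without the other 48 listed genes of their pathway that had a row. Of 17 clusters, 3 (963 cells) were GABAergic MGE neuron-like, 3 (930 cells) cholinergic-like, 4 (1097 cells) ventricular zone progenitor-like and 3 (596 cells) subventricular zone progenitor-like. A cluster led by Ebf1 and Tac1 (153 cells) was called LGE neuron-like, after the neighbouring lateral ganglionic eminence, and one led by Grm8 and Sp8 (119 cells) CGE neuron-like, after the caudal eminence. The last name, and that of the GABAergic cluster led by Gucy1a1, rest on 3 markers each. For the CGE name these were Nr2f2, Prox1 and Sp8, while Calb2 did not pass. Isl1 stood at 5.88 in that cluster, beside 9.19 in LGE neuron-like cells and at most 2.12 in a cholinergic-like cluster. Six3 was also among its leading genes, so the CGE name is uncertain. Clusters led by Otp (40 cells) and by Hmx2 and Hmx3 (97 cells) stayed unnamed. The Otp cluster passed the rule for glutamatergic neurons with 4 markers, but its 10 leading genes held as many diencephalic markers (Otp and Sim1) as glutamatergic ones (Neurod1 and Slc17a6), with Otp first. Vessel and microglial sources had few markers to test: Pecam1 was the only endothelial marker of 6 with a row, and its level reached at most 0.0147 in any cluster. Summed haemoglobin and Alas2 levels were between 1.29 and 1.89 in every cluster, so low values of blood-cell genes occurred in cells of every cluster. In 207 cells (5.17%), genes almost never took the value 1, and ratios were recomputed without them.

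In GRCm38, the build of the submitters' processing notes, Nrp1 (ENSMUSG00000025810) lies on chromosome 8 from 128358604 to 128503363, Nrp2 (ENSMUSG00000025969) on chromosome 1 from 62703285 to 62818695, and Plxna2 (ENSMUSG00000026640) on chromosome 1 from 194618218 to 194816869. Sema3a (ENSMUSG00000028883) and Sema3c (ENSMUSG00000028780) share chromosome 5, at 13125414 to 13602565 and 17574281 to 17730268. These 5 genes are on the plus strand, and Plxna4 (ENSMUSG00000029765) is on the minus strand of chromosome 6 from 32144268 to 32588192. GENCODE places 3 antisense genes (Plxna4os1, Plxna4os2 and Plxna4os3) over Plxna4, Gm29083 antisense over Nrp2 and Gm42680 antisense over Sema3a. The sources used here do not state whether counting used strand, so whether reads of these antisense partners entered the values is not known. On the same strand, Mir1903 overlaps Nrp1, Gm37121 overlaps Nrp2, and Gm43130, Gm42676 and Gm42675 overlap Sema3a. Plxna2 is overlapped on its strand by Gm37783, Gm37674, Gm38036 and 2900035J10Rik. How reads shared with these genes were assigned was not examined.

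Start-site sequence from RefSeq (GRCm38.p6) was matched for 5 of the 6 genes. The stretches below are shown because Sema3a and Sema3c, the ligand genes that were both highest in the LGE neuron-like cluster, differ most in base composition, and the neuropilins are added for comparison. Nrp1, Nrp2 and Sema3a are given upstream of the RefSeq start and outside every GENCODE exon, with CpG in capitals. The first lies at chr8:128358823-128359072, the second at chr1:62703067-62703284 and the third at chr5:13396534-13396783, all on the plus strand. The Sema3a stretch begins 271120 bases past the GENCODE start of the gene, within its span. For Sema3c only 30 bases are shown, at chr5:17574724-17574753, because the window lies within an exon. Capitals there mark CACTTG, the reverse complement of the CAAGTG core bound by Nkx2 factors.
Nrp1: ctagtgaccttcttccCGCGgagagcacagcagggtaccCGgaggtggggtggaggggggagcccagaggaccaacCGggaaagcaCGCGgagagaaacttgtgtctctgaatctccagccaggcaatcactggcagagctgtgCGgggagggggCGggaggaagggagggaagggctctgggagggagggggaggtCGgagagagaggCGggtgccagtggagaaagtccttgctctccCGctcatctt
Nrp2: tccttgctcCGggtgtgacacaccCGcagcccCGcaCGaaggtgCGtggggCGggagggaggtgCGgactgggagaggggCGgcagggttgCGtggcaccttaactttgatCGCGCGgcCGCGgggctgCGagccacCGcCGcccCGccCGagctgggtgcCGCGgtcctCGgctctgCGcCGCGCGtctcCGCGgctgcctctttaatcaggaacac
Sema3a: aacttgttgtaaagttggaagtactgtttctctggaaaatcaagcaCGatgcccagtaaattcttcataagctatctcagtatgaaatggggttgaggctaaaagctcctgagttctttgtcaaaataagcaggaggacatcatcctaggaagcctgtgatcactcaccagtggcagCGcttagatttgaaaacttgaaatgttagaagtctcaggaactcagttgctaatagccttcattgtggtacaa
Sema3c: ccggcgcccggcCACTTGccattcactccg

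Over the 250 bases before the RefSeq start, Sema3a held 2 CpG and 40.8% G or C, and Sema3c held 39 CpG and 78.4%. The G or C shares were 64.4% for Nrp1 (11 CpG), 72.4% for Nrp2 (32 CpG) and 62.8% for Plxna2, beside a median of 52.4% over 32851 promoters. The Plxna2 window begins 1361 bases past the GENCODE start of the gene and lies within exons. That of Nrp1 begins 219 bases past the GENCODE start, outside exons. The letters CAAGTG, searched on both strands, occurred in the 300-base window of Sema3c and of none of the other 4, beside 13.6% of all windows. TAATTA (5.29% of windows, a homeodomain core) and CAGCTG (16.3%, an E-box) were in none of the 5. These are letter matches in a short window and say nothing of whether a factor binds.

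The receptor genes were genes of the neurons. Between cells with Tubb3, a neuronal tubulin gene, under 1 per 10000 and cells with 20 to 40 per 10000, the level rose 7.97-fold for Nrp1, 12.2-fold for Nrp2, 8.40-fold for Plxna2 and 13.9-fold for Plxna4. It did not rise further at 40 or more, with levels of 0.606, 0.690, 2.29 and 0.221 against 0.754, 0.703, 2.65 and 0.308 at 20 to 40. The Nrp2 share there was 35.2%, against 31.5%. Plxna2 had the highest share in every range: 27.7% in the lowest Tubb3 range, 62.6% at 5 to 10 and 79.8% at 10 to 20. A share also depends on the level of a gene. At 5 to 10 the Plxna2 level was 1.29, against 2.65 at 20 to 40, and the Nrp1 level 0.308, against 0.754. Which gene rose first was not tested. At 5 to 10, the share for Plxna4 was 2.67%, close to the 2.59% of the lowest range with overlapping intervals, and it reached 12.1% at 10 to 20 and 21.6% at 20 to 40. Nrp1 passed 10.6%, 21.0%, 29.2% and 36.9% in those same 4 ranges. Nrp2 passed 7.19%, 13.0%, 17.6% and 31.5%. The ligand genes had a smaller gradient, 4.16-fold for Sema3a and 2.56-fold for Sema3c, and for Sema3c the lowest range (4.99% of cells) was above the 5 to 10 range (1.53%). LGE neuron-like cells, with Tubb3 at 31.9, held 60.1% of all Sema3a and 47.7% of all Sema3c value. In the other clusters with a median Tubb3 of at least 10, levels were 0.0301 for Sema3a and 0.0476 for Sema3c. In the lowest Tubb3 range they were 0.0237 and 0.0459. The gradient was not recounted without LGE neuron-like cells. Ranges of Tubb3 are ranges and not cell types, and the ratio for Plxna2 was lower, at a log2 of 2.14 against 3.07, when cells were ranged by Stmn2.

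**Figure D1:**
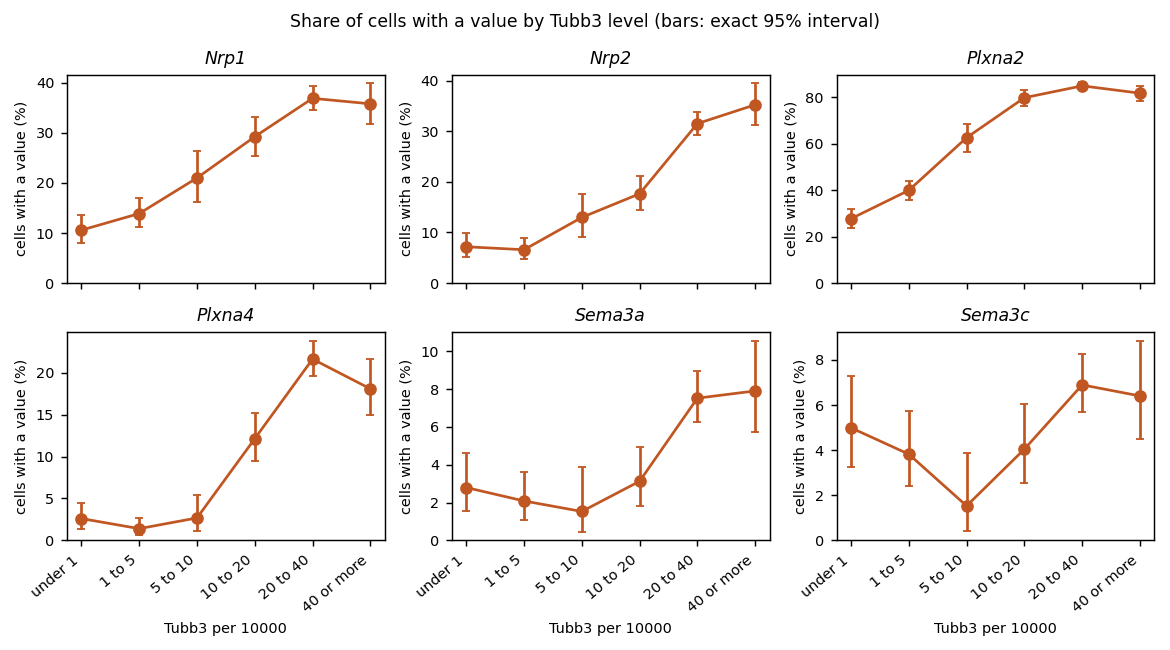
Share of cells with a value above 0 (vertical axis, percent) for each gene in 6 ranges of Tubb3 per 10000 summed values (horizontal axis), with exact 95% intervals as bars. Plxna2 is at 62.6% in the 5 to 10 range, where Plxna4 is at 2.67%.

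The receptor genes were also higher in neurons when classes were compared. GABAergic MGE neuron-like and cholinergic-like cells together had a Nrp1 level of 0.712 ± 1.36 (SD over 1893 cells) against 0.113 ± 0.343 in 1097 ventricular zone progenitor-like cells, a log2 ratio of 2.66. The log2 ratio was 3.35 for Nrp2, 2.55 for Plxna2 and 4.16 for Plxna4, and it was under 1 for Sema3a (0.84) and Sema3c (0.59). With 4000 variable genes in the clustering in place of 2000, these moved to 1.03 and -0.061. Thus 4 of the 6 genes were at least 2-fold higher in neurons and 0 were 2-fold lower. Of the 14629 genes with at least 30 summed values, 15.8% were at least 2-fold higher and 25.2% at least 2-fold lower. Subventricular zone progenitor-like cells already carried Plxna2, in 76.3% of cells, but Plxna4 in 2.18%, against 2.37% in the ventricular zone.

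Of the neuropilin, plexin and semaphorin genes, 27 could be counted in that comparison, and 15 were at least 2-fold higher in neurons and 5 lower. The median log2 ratio of the 27 was 1.22, beside -0.19 over all genes. The other A-type plexins were higher by less, with log2 ratios of 1.22 for Plxna1 and 1.56 for Plxna3. Among class 3 ligands, Sema3f was higher in neurons (log2 1.99) and Sema3b lower (-1.98). The membrane-bound Sema6c (3.06) and Sema6b (4.14), of the class that binds A-type plexins without a neuropilin, were higher in neurons, and the progenitor side held Sema5a (-3.05), Sema4d (-2.22), Sema5b (-1.93) and Sema6a (-1.37). Of 24 coreceptor and intracellular genes, 12 were higher and 3 lower. They included L1cam (3.78) and Chl1 (3.70), adhesion molecules that associate with neuropilins, and all 5 collapsin response mediator genes, from 1.01 for Dpysl2 to 3.86 for Dpysl3. Tubb3 moved with all of these, at 32.6 in neurons and 2.11 in progenitors.

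**Figure D2:**
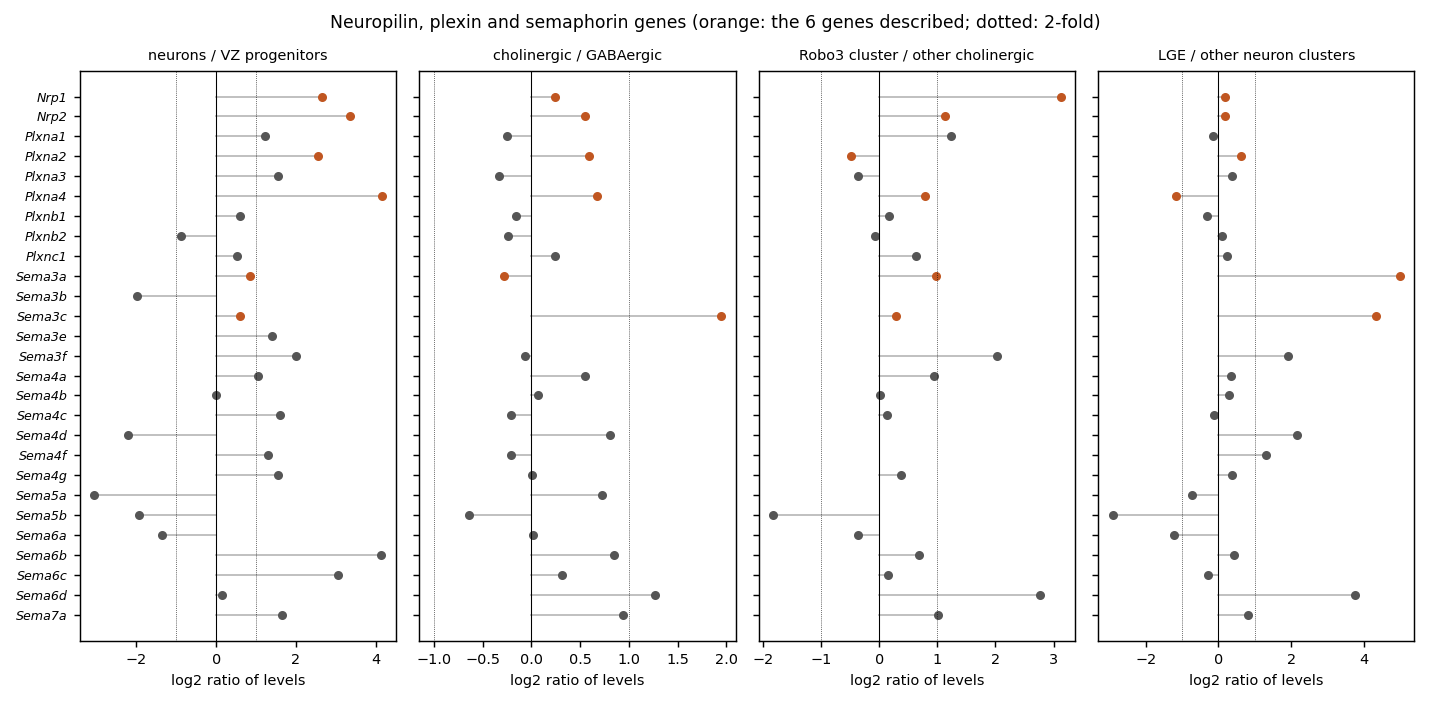
Log2 ratio of levels (horizontal axis) for each neuropilin, plexin and semaphorin gene with at least 30 summed values, in 4 comparisons of cell groups within the library. The 6 genes described are orange, the others grey, and dotted lines mark 2-fold. Nrp1 stands at 3.12 in the Robo3 cluster, and Sema3a (4.99) and Sema3c (4.33) stand far right among LGE neuron-like cells.

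Nrp1, the receptor gene for Sema3a, was found at its highest levels in 3 clusters with different leading genes. Its level was 2.34 ± 2.40 (SD, 221 cells) in the cholinergic-like cluster led by Asic4, Chl1 and Robo3, where 71.9% of cells had a value (65.5% to 77.8%). It was 1.86 ± 1.43 in the GABAergic cluster led by Lrp1b and Gucy1a1, in 82.9% of 158 cells (76.1% to 88.4%), and 1.57 ± 1.72 in the unnamed Hmx2 and Hmx3 cluster, in 71.1% of 97 cells. Then followed the Otp cluster at 0.947, LGE neuron-like cells at 0.753, the Sst and Calb1 cluster at 0.527 and CGE neuron-like cells at 0.509. The remaining cholinergic-like clusters were much lower, at 0.396 for the cluster led by Sgk1 and Arl4d and 0.209 for the Pde3a, Nr4a2 and Gbx1 cluster. The lowest level, 0.0544, was in ventricular zone progenitor-like cells in mitosis. Along this order of 17 clusters, the share intervals of 14 of the 16 neighbouring pairs overlapped. The Robo3 cluster held 26.0% of all Nrp1 value with 5.53% of cells.

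Among ventricular zone progenitor-like clusters, the small one led by Igfbp5 and also marked by Fst and Pax6 (63 cells) stood above the others. Its Nrp1 level was 0.438, with 41.3% of cells (29.0% to 54.4%). The other 3 progenitor clusters of that zone had 5.93%, 10.3% and 14.9% of cells with a Nrp1 value, and their intervals did not overlap with its own. For Nrp2 the same cluster had 15.9% of cells (7.88% to 27.3%), which overlapped with the 7.51% and 8% of the histone and S phase clusters.

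Nrp2, the neuropilin that can also serve Sema3c, had a different order. CGE neuron-like cells were highest at 1.72 ± 2.28, with 58.0% of 119 cells (48.6% to 67.0%), followed by the Otp cluster at 1.35, the Robo3 cluster at 1.33 and the Gucy1a1 cluster at 1.07. The Pde3a cluster, low for Nrp1, had a Nrp2 level of 0.829 in 39.2% of cells. LGE neuron-like cells stood at 0.697, the Sst and Calb1 cluster at 0.618 and the Hmx2 cluster, high for Nrp1, at 0.450. Both the Sgk1 cluster (0.125, 10.4% of cells) and the GABAergic cluster led by Tgfb3 and St18 (0.0597, 5.84% of cells) were within the range of progenitor clusters, although Tubb3 stood at 25.3 and 29.1 in them. Along the 17 clusters, the log2 levels of Nrp1 and Nrp2 had a Pearson r of 0.75, a description over clusters that share 1 library.

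Plxna2, the most widely detected of the receptors, had a value in 68.7% of all cells. Its level was 3.76 ± 3.30 in LGE neuron-like cells, 3.59 ± 2.97 in the Pde3a cluster and 3.49 in the Sgk1 cluster, and their share intervals overlapped, at 90.8%, 89.8% and 90.4%. It was 2.55 in the Robo3 cluster, 2.40 in the Sst and Calb1 cluster, 2.01 in the Gucy1a1 cluster and 1.92 in the St18 cluster. CGE neuron-like cells stood at 1.46. The unnamed clusters were lower than any of these, at 0.647 with Hmx2 and 0.443 with Otp, beside 0.410 to 0.620 in the ventricular zone progenitor-like clusters. The Hmx2 and Otp clusters, high for Nrp1 or Nrp2, were thus the lowest of the neuron clusters for Plxna2.

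Plxna4, detected in 13.3% of all cells, was highest in the Robo3 cluster at 0.627 ± 1.13 (37.1% of cells, 30.7% to 43.8%), then in the Pde3a cluster at 0.483 (32.4%), the Sst and Calb1 cluster at 0.328 (24.9%) and the St18 cluster at 0.248 (19.0%). LGE neuron-like, Sgk1 and Gucy1a1 neurons lay between 0.0945 and 0.116. CGE neuron-like cells stood at 0.0481 and the unnamed clusters at 0.0491 and 0.0403. No 2 neighbours in the order had share intervals that parted. All ventricular zone progenitor-like cells together had Plxna4 in 2.37% (1.55% to 3.45%), apart from the intervals of the LGE neuron-like (7.12% to 18.0%), Sgk1 (7.52% to 16.1%) and Gucy1a1 (4.45% to 13.7%) neurons. The intervals of the CGE neuron-like (2.40% to 11.7%), Hmx2 (2.30% to 13.0%) and Otp (0.611% to 16.9%) clusters overlapped with it. Whether reads of the Plxna4os genes are part of these values is not known.

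**Figure D3:**
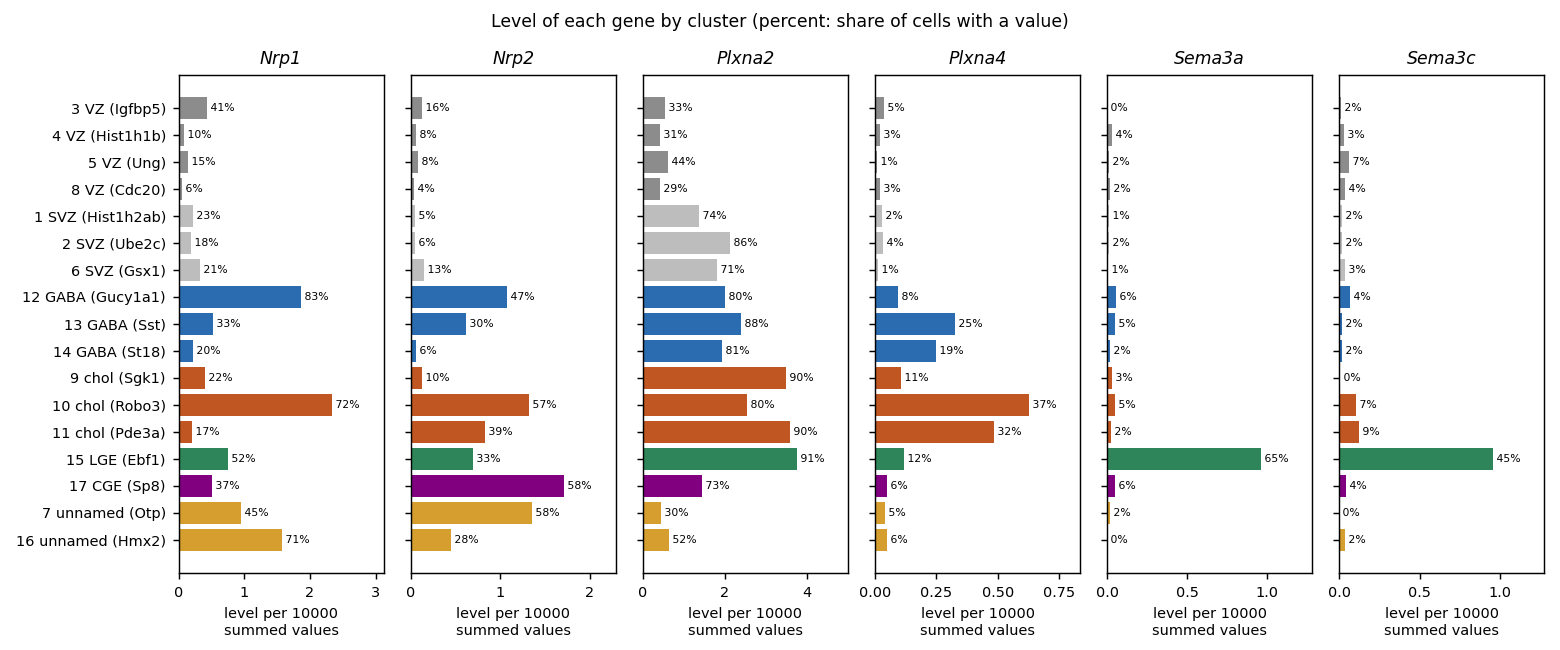
Level of each gene per 10000 summed values (horizontal axis, a scale of its own in each panel) in 17 clusters, labelled by class (VZ and SVZ, ventricular and subventricular zone progenitor-like; GABA and chol, GABAergic MGE neuron-like and cholinergic-like) and a leading gene, with the share of cells beside each bar. Sema3a and Sema3c each stand out in the LGE bar, at 0.960 and 0.955, and Nrp1 and Nrp2 peak in different clusters.

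Both ligand genes were concentrated in the LGE neuron-like cluster, led by Ebf1, Tac1 and Dlc1, which include genes known from striatal projection neurons. Sema3a had a level of 0.960 ± 0.985 in its 153 cells and a value in 65.4% of them (57.3% to 72.9%). Those 3.83% of cells held 60.1% of all Sema3a value. The next cluster was the Gucy1a1 cluster, at 0.0525 and 5.70% of cells. In ventricular zone progenitor-like cells, which have little Sema3a, the share was 2.46% at a median total of 13510 against 13256 in the LGE cluster. These totals had been evened out, so they cannot show whether raw depth differed. Sema3c had a level of 0.955 ± 1.42 there and a value in 45.1% of cells (37.1% to 53.3%), or 47.7% of its summed value. Outside it, Sema3c reached 0.122 in the Pde3a cluster (9.19% of cells, 6.75% to 12.1%) and 0.103 in the Robo3 cluster. It was listed in 0.435% of Sgk1 cells.

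Against the other clusters with a median Tubb3 of at least 10 per 10000 (2584 cells, 2 subventricular clusters among them), LGE neuron-like cells had log2 ratios of 4.99 for Sema3a, 4.33 for Sema3c and -1.16 for Plxna4. This comparison was chosen after the cluster levels were seen. The share of genes at least 2-fold higher was 8.61% and of those at least 2-fold lower 12.1%, over 13898 genes. Nrp1 (0.18), Nrp2 (0.19) and Plxna2 (0.63) were under 2-fold, but Nrp2 was not in every clustering: it reached 1.04 at a coarser one and 1.13 when the pathway genes were kept in the clustering. Plxna4 was at -0.97 with all cells kept. Sema3a dropped to 4.36 and Sema3c to 3.61 at the coarser clustering, in which the LGE class took 6.53% of cells. Of the wider family, Sema6d (3.76), Sema4d (2.16), Sema3f (1.92) and Sema4f (a level of 0.0556 against 0.0225) were also higher, as was L1cam (2.24). Sema5b (-2.91) and Sema6a (-1.23) were lower, and Sema3e was listed at 0.

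The selection of Isl1+ Ebf1+ Lhx8- neurons by their own values, without clusters, gave 101 cells with a similar pattern. Sema3a was in 57.4% of them (47.2% to 67.2%) at a level of 0.856, and Sema3c in 32.7% (23.7% to 42.7%) at 0.696. In Lhx8+ Isl1+ neurons, which share Isl1, Sema3a was in 7.06% and Sema3c in 9.41%. This group was not limited to cholinergic-like cells. It held 42 cells with Sema3a, beside 27 among all 930 cholinergic-like cells. Its highest Sema3a value, 7, was reached in the LGE neuron-like cluster and in no other. The other neuron groups set by markers had Sema3a shares from 1.79% (Lhx8+ Gbx2+) to 7.73% (Lhx6+ Lhx8-).

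**Figure D4:**
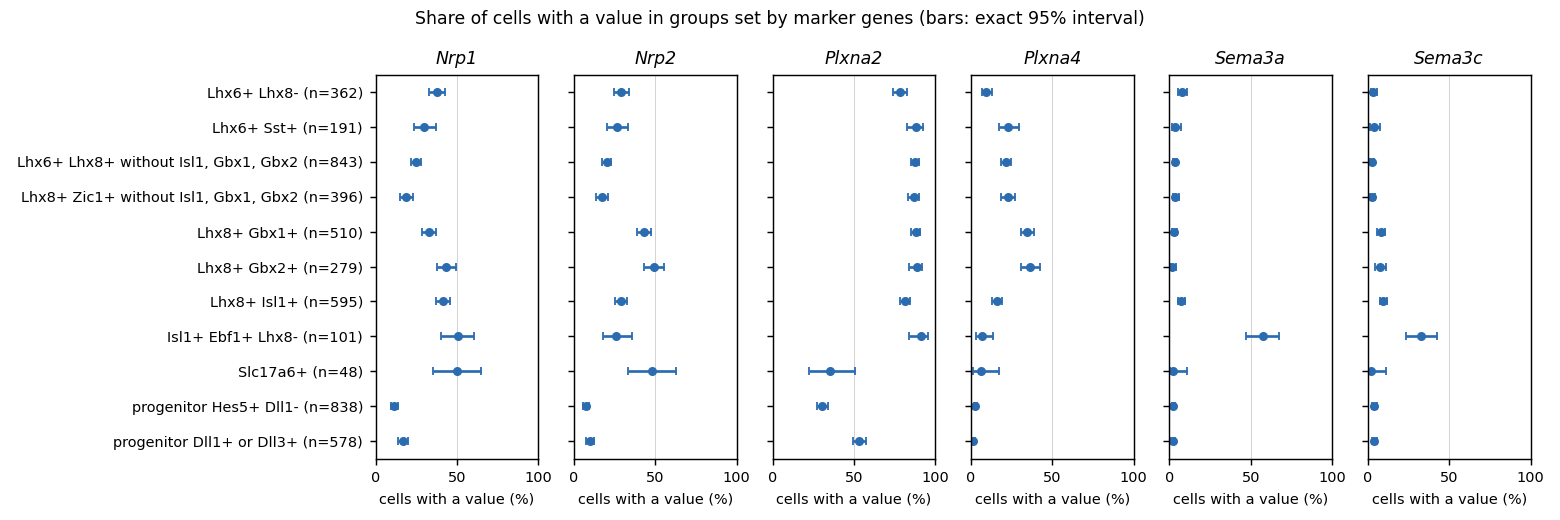
Share of cells with a value above 0 (horizontal axis, percent) in groups set by marker genes, with exact 95% intervals as bars. Groups can share cells. Sema3a and Sema3c are high in Isl1+ Ebf1+ Lhx8- neurons (57.4% and 32.7%), and Plxna4 is highest in Gbx1 and Gbx2 neurons.

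The groups set by markers gave further detail on the receptors in neurons with Lhx8, the LIM factor of the cholinergic lineage. In Lhx8+ Gbx2+ neurons, Nrp2 was in 49.1% (43.1% to 55.1%), Nrp1 in 43.4% and Plxna4 in 36.6% of 279 cells. In Lhx8+ Zic1+ neurons without Isl1, Gbx1 or Gbx2, the shares were 16.9%, 18.9% and 22.7% of 396 cells, with none of these intervals overlapping. Lhx8+ Isl1+ neurons had Nrp1 in 41.3% and Plxna4 in 15.8% of 595 cells. With the shared cells removed, a split added after the data were seen, Gbx2 neurons without Isl1 (213 cells) and Isl1 neurons without Gbx2 (529 cells) had similar Nrp1 shares, 43.2% and 41.0%. They differed in Nrp2 (49.3% against 26.1%) and in Plxna4 (37.6% against 13.6%), where the intervals did not overlap. Among Lhx6+ neurons, those without Lhx8 had less Plxna4 (9.39% of 362 cells) than those with Lhx8 and without Isl1, Gbx1 and Gbx2 (21.5% of 843 cells), and more Nrp1 (37.6% against 24.9%). In Slc17a6+ neurons, which carry the glutamate transporter gene, Nrp1 was in 50.0%, Nrp2 in 47.9% and Plxna2 in 35.4% of 48 cells.

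The series names the GABAergic and cholinergic lineages, and between these classes the 6 genes mostly differed by little. Nrp1 was at 0.773 ± 1.58 (SD, 930 cells) in cholinergic-like and 0.655 ± 1.11 (963 cells) in GABAergic MGE neuron-like cells, a log2 ratio of 0.24. Log2 ratios were 0.55 for Nrp2, 0.59 for Plxna2, 0.67 for Plxna4 and -0.28 for Sema3a. Sema3c was the exception, with a log2 ratio of 1.95 between low levels of 0.0883 and 0.0229, in 6.56% of cholinergic-like cells (5.05% to 8.35%) and 1.97% of GABAergic cells (1.19% to 3.06%). It was thus 1 of the 6 genes at least 2-fold higher and 0 were at least 2-fold lower, beside 2.72% and 2.42% of 12680 genes. The direction of the Sema3c difference held in all alternatives run, with log2 values from 1.39 to 2.95, and Nrp1 reached 0.84 and 0.95 under 2 other clusterings. With all cells kept the Nrp1 ratio turned to -0.06. Of 25 family genes, Sema6d (1.27) was the other one 2-fold higher, and of 23 coreceptor and intracellular genes, Chl1 (3.52). Cells that skip the value 1 were 9.03% of the cholinergic-like and 4.47% of the GABAergic cells, and their part in these ratios was not tested beyond leaving them out.

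The neuropilins also differed within each class. The Robo3 cluster had a Nrp1 level of 2.34 against 0.269 ± 0.687 in the other 709 cholinergic-like cells, a log2 ratio of 3.12, and Nrp2 had one of 1.14. They were 2 of 6 genes at least 2-fold higher, beside 5.8% of 11104 genes, with 4.15% lower. Sema3a (0.98), Plxna4 (0.79), Sema3c (0.29) and Plxna2 (-0.48) were under 2-fold in this clustering. In the GABAergic class, the Gucy1a1 cluster had log2 ratios of 2.14 for Nrp1 (1.86 against 0.422), 1.32 for Nrp2 (1.07 against 0.429) and -1.67 for Plxna4 (0.0945 against 0.300) to the other 805 cells. Sema3c could not be counted there, so these are 2 of 5 genes higher and 1 lower, beside 3.86% and 6.01% of 11198 genes. Both comparisons were chosen after the cluster levels were seen.

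Several of these values moved with the clustering. At a finer clustering, the Nrp1 ratio of the Robo3 cluster fell to 1.13 and its Nrp2 ratio to 0.32, and the Nrp2 ratio of the Gucy1a1 cluster fell to 0.62 and its Plxna4 ratio to -0.83, so that of the ratios past 2-fold here, the Nrp1 ratios alone stayed past 2-fold in all 7 alternatives run. At a coarser clustering the Nrp2 ratio was 0.40 for the Robo3 and 0.90 for the Gucy1a1 cluster. The smaller ratios of the Robo3 cluster depended on the clustering most: with 4000 variable genes they were 2.21 for Sema3a, 2.55 for Sema3c and 1.87 for Plxna4, while at the finer clustering Sema3a was at -0.48 and Sema3c at -2.97. Sema3a of the Gucy1a1 cluster, 0.53 in the clustering reported, reached 1.56 at the finer clustering and 2.09 with all cells kept. Of 22 counted neuropilin, plexin and semaphorin genes, 6 were 2-fold higher in the Robo3 cluster, beside 5.8% of all genes. The count was 2 at the coarser and at the finer clustering and 9 with 4000 variable genes. For the Gucy1a1 cluster 6 of 21 were higher, beside 3.86% of all genes, and 2 genes at the coarser clustering. Shares over all genes are not given for the other clusterings, so these counts cannot be set against them. In the clustering reported, Sema6d (2.76), Sema3f (2.02), Plxna1 (1.23), Chl1 (2.95) and L1cam (1.84) were higher in the Robo3 cluster, and Sema3f (1.93), Sema4a (1.26), Sema6a (1.10) and Plxnc1 (1.03) were higher in the Gucy1a1 cluster.

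Neurons with Lhx6, the LIM factor of MGE-derived interneurons, were divided by whether Nkx2-1 had a value. These neurons were not limited to interneurons. Lhx8 was also present in 260 of the 369 without and 1421 of the 1674 with Nkx2-1. Cells of the cholinergic-like Sgk1, Robo3 and Pde3a clusters were among them. Nrp2 had a level of 1.15 ± 1.89 in the 369 without and 0.439 ± 1.08 in the 1674 with Nkx2-1, 2.61-fold higher without. The shares were 44.7% and 23.9%, with intervals apart. The side with Nkx2-1 held cells of subventricular zone progenitor-like clusters (24, 136 and 64 cells, with Nrp2 in 4.17%, 5.88% and 10.9%). It also held 194 cells of the Sgk1 cluster, with Nrp2 in 9.79%. None of these clusters had at least 10 cells without Nkx2-1. The sides thus differed in their clusters, and the part of this in the pooled ratio was not tested. The Nrp1 level was 0.589 ± 1.06 without and 0.587 ± 1.21 with Nkx2-1, and its shares of 35.0% and 31.2% overlapped. Plxna2 was at 2.66 on both sides, and Plxna4 was 1.04-fold higher without. The ligand genes were higher without Nkx2-1: 3.16-fold for Sema3a (8.13% against 3.11% of cells) and 7.13-fold for Sema3c (12.5% against 2.39%). So 3 of the 6 genes were at least 2-fold higher and 0 at least 2-fold lower, beside 2.01% and 4.86% of 13055 genes. The count rested in part on LGE neuron-like cells: they were 22 of the 369 cells without Nkx2-1, and held 13 of the 30 such cells with Sema3a and 13 of the 46 with Sema3c. With LGE neuron-like cells left out, a step added after the data were seen, Sema3a was 1.56-fold higher without Nkx2-1 (4.90% of 347 cells against 2.99% of 1670, intervals overlapping). Sema3c was then 4.58-fold higher (9.51% against 2.28%, intervals apart) and Nrp2 2.69-fold (45.0% against 23.9%, intervals apart). The share of all genes past 2-fold was not counted without these cells.

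The Nrp2 difference was present in Lhx6 neurons without Lhx8 (43.1% of 109 cells against 22.9% of 253) and with Lhx8 (45.4% of 260 against 24.1% of 1421). For Sema3a the intervals overlapped in both of these groups. Cells without Nkx2-1 were also further along by Tubb3 (37.5 against 29.9) and held 0% of cells that skip the value 1, against 6.99%. Without such cells the log2 ratio for Nrp2 was 1.37 in place of 1.39, and with Tubb3 of at least 20 per 10000 it was 1.26. A neuron without a Nkx2-1 value has not been shown to lack the transcript. A split within clusters was added after the data were seen. It gave 6 clusters with at least 10 cells on each side, and the Nrp2 level was higher without Nkx2-1 in 5 of 6. The intervals parted in 2: the Pde3a cluster (67.8% of 90 cells against 32.3% of 362) and the Gucy1a1 cluster (71.0% of 31 against 38.4% of 99). In the others they overlapped, also in the Sst and Calb1 cluster (33.1% of 163 cells against 28.5% of 351). For Nrp1 they parted in 0 of 6, and for Sema3a in 0 of 6. For Sema3c they parted in the Pde3a cluster (23.3% against 5.52%).

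**Figure D5:**
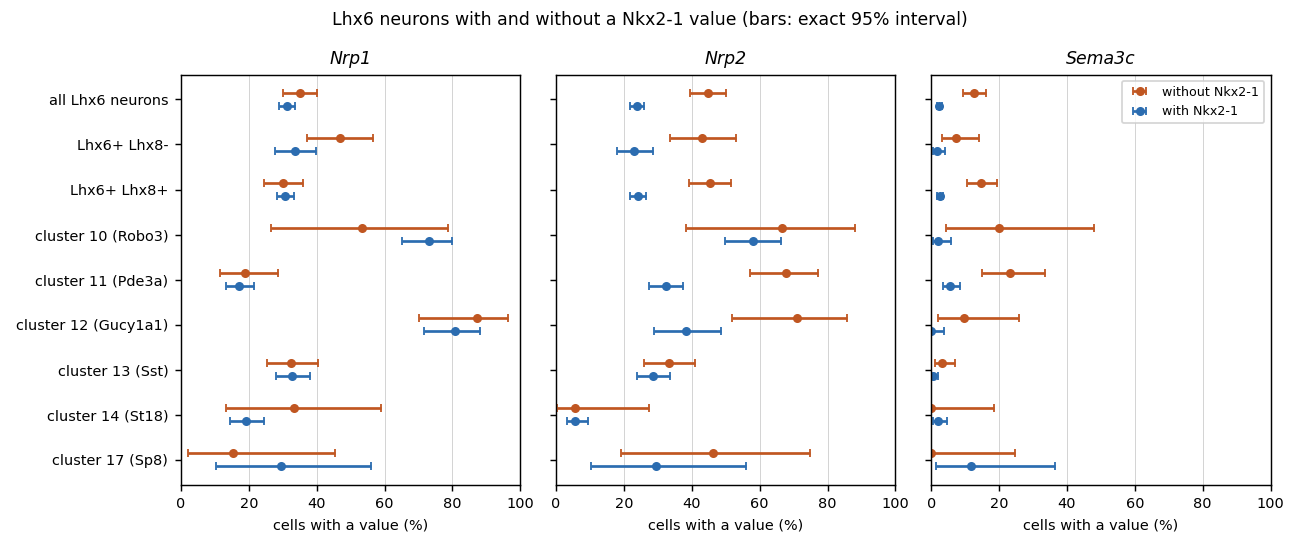
Share of Lhx6 neurons with a value above 0 (horizontal axis, percent) for Nrp1, Nrp2 and Sema3c, without (orange) and with (blue) a Nkx2-1 value, for all such neurons, by Lhx8, and within 6 clusters, with exact 95% intervals. Nrp2 is in 44.7% of the neurons without and 23.9% of those with Nkx2-1, and Nrp1 in 35.0% and 31.2%.

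Detection in the same cell was counted in 2656 neurons with Tubb3 of at least 10 per 10000. A neuropilin was detected in 50.2% of them, and a neuropilin together with a Plxna2 or Plxna4 value in 41.9%. A further 43.3% had one of these plexins without a neuropilin, and 6.51% had none of the 4. Nrp1 without Nrp2 was in 20.7%, Nrp2 without Nrp1 in 15.1% and both in 14.3% (381 cells), 1.39 times the product of their shares and 1.15 times the product taken within clusters. Nrp1 and Plxna2 were together in 28.6%, 0.98 times the product. Sema3a and Sema3c were together in 55 cells, 4.97 times the product over all neurons but 1.14 times within clusters. Within LGE neuron-like cells, 30.1% had both (22.9% to 38.0%), beside a product of 29.5%. In those cells, Sema3a and Nrp1 were together in 33.3%, beside a product of 33.7%. Any of the ligands with any neuropilin was in 7.19% of neurons (6.24% to 8.24%).

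The genes whose log2 level across the 17 clusters was most like each of the 6 were ranked among 5074 genes, as a description without a p-value. Sema3a was most like Dlc1 (r = 0.96), Tac1 (0.94), Dscam (0.91), Dok5 (0.91) and Cystm1 (0.90), and Sema3c most like Cpne5 (0.93), Dlc1 (0.91), Vstm2a (0.90), Fgf14 (0.89) and Has3 (0.87). Between Sema3a and Sema3c r was 0.92 over the 17 clusters and 0.33 over the 16 without the LGE neuron-like cluster, which was the highest for all of these genes. The genes most like Plxna2 included Mpped2 (0.92), Bcl11b (0.91), Dlx5 (0.89) and Nrxn3 (0.88), and those most like Plxna4 included Pacsin1 (0.92), Vav3, Zfp428 and Spats2l. Nrp1 was most like Minar2 (0.92), Tmx4, Gprasp2, Flywch2 and Arhgef12, and Nrp2 like Cbarp (0.95), Tnik, Dpp6, Plcl1 and Gpm6a. By Spearman's rho, between 0 and 2 of the 5 genes were the same.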

How the data were processed

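Cell Ranger 3.0.2, bcl2fastq and the GRCm38 build are named in the submitters' processing notes. The deposited matrix (18088 genes, 4001 cells) holds whole numbers up to 1245, treated as a score derived by the authors from UMI counts; no source used here gives the step that evened out cell totals. Depth is therefore unknown, and no p-value was computed, since cells of 1 library are not replicates.

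Scrublet in scanpy 1.11.5 called 6 doublets (0.150%), too few to show that doublets were rare. Clusters used the 2000 most variable genes without the pathway list, 30 components, 15 neighbours and Leiden resolution 1 (igraph 0.11.9, seed 0). A name required 3 or more markers, each 1.5 times above the remaining cells and present in 10% of the cluster. Where 2 classes tied among the leading genes, a name was kept only where its own marker ranked first, a choice made after cluster values were seen. Because names were rebuilt here, classes may differ from the study's.

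The 6 genes and all lists were chosen with earlier results of these data known. Of 59 listed pathway genes 54 had a row. Ratios were counted for genes with at least 30 summed values and called at 2-fold. Named genes are the 6, their pathway list, the 5 most alike genes, of which some are not reported here, and cluster markers. Ratio code was tested on simulated data. Proteins and the promoter of Plxna4 were not analysed here.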

Additional observations from a re-analysis of the deposited data

How the results depend on the processing

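Of 512 values recomputed under other settings, 438 stayed close to those reported and 74 moved. No log2 ratio reported at 2-fold or more changed sign, but 14 smaller ones did under some alternative. Log2 ratios of cholinergic-like to GABAergic cells moved for Nrp1 to 0.84 at resolution 2 and 0.95 with 4000 variable genes. For Sema3c they moved to 2.95 at resolution 0.5 and 2.80 at resolution 2. At resolution 2, 5 family genes were 2-fold higher in place of 2, and the share over all genes is not given there. In neurons over ventricular zone cells Sema3c moved to -0.061 with 4000 variable genes. For the Robo3 cluster, Nrp1 moved to 1.13 at resolution 2 and 2.29 with 4000 variable genes, and Nrp2 to 0.40 at resolution 0.5, 0.32 at resolution 2 and 2.81 with 4000 variable genes. For the Gucy1a1 cluster, Nrp2 moved to 0.62 at resolution 2 and 2.67 with all cells kept, and Plxna4 to -0.83 at resolution 2. For LGE neuron-like cells at resolution 0.5, Sema3a moved to 4.36 and Sema3c to 3.61. With a value of at least 2 as positive, Sema3c without over with Nkx2-1 moved to 1.51 (2.19 without LGE neuron-like cells), and Sema3a with Sema3c to 13.0 times the product. Ranging by Stmn2 moved Plxna2 to 2.14. The cause of each was not tested. No paired analysis was possible because there was 1 RNA library. The planned protein description was not run. Unknown raw depth limits every low share, and values for Sema3a and Sema3c outside LGE neuron-like cells rest on few cells.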
